A study of Mus musculus with 12 samples.

Results

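The nuclear-encoded respiratory chain subunits are the proteins of the 5 complexes of oxidative phosphorylation whose genes lie in the nucleus. They were taken as every gene whose single symbol in the array's annotation starts with Ndufa, Ndufb, Ndufc, Ndufs or Ndufv and a digit (complex I), is Sdha, Sdhb, Sdhc or Sdhd (complex II), or starts with Uqcr (complex III), Cox4 to Cox8 (complex IV) or Atp5 (complex V). This gave 81 genes of the 19938 genes measured by probe sets with 1 symbol: 35 of complex I, 4 of complex II, 8 of complex III, 17 of complex IV and 17 of complex V. The rule used names and no measured value, although it was chosen with earlier results of these data known. Cox7c and Ndufb4 were carried by probe sets with several symbols, and Cyc1 and Ndufab1 fell outside the naming rule. Ndufa4 was counted with complex I by its symbol, although its protein is now placed in complex IV.

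The study used adolescent male Swiss CD-1 mice in a conditioned place preference procedure of 10 days, a test in which a drug effect is paired with a place and the later preference for that place is read as reward. Drugs were given 15 minutes before an animal entered the drug-paired compartment. The 4 groups received saline, ethanol, mephedrone (a synthetic cathinone stimulant) or mephedrone with ethanol, called the combination here, and each group has 3 arrays. Total RNA of the anterior striatum was amplified, labelled and hybridised to Affymetrix whole-transcript arrays. The labels name no genetic change in any group. The labels give no dose and do not say whether an array is 1 animal, so p-values measure the spread between these arrays, which may be technical. In bulk tissue, fewer cells of a type and less RNA per cell cannot be told apart.

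Complexes I to IV pass electrons from NADH and succinate to oxygen and, except for complex II, pump protons across the inner mitochondrial membrane. Complex V, the ATP synthase, lets the protons flow back and makes ATP. In the brain this ATP pays mainly for ion pumping after synaptic and action potentials, and medium spiny neurons of the striatum are known for their sensitivity to inhibitors of complex II. Complexes I, III, IV and V also contain subunits made from mitochondrial DNA, so each of them is assembled from the products of both genomes. Complex II is built from nuclear genes alone.

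Each value below is the deposited log2 value of a gene relative to the median of the 12 arrays, so 0 is the middle of its arrays and levels of different genes cannot be compared. Of the 81 subunit genes, 74 were read at 8 or more on the log2 scale of the underlying signal and 7 below it, as judged from the size of the rounding steps of the deposited numbers. Over all genes, 9901 of 19938 were at 8 or more. The 7 dim genes were Cox4i2, Cox6b2, Cox7a1, Cox7b2, Cox8b, Cox8c and Ndufa4l2, which are isoforms known chiefly from muscle, lung, testis or low-oxygen tissue. The 12 striatal projection neuron markers and 10 pan-neuronal markers checked were at 8 or more, while 2 of 13 choroid plexus markers and 0 of 8 ependymal markers were.

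A pair of arrays stood apart from the rest. The standard deviation over all probe sets was 0.169 on combination replicate 3 and 0.127 on ethanol replicate 1, against 0.068 to 0.102 on the other 10 arrays. The mean of the choroid plexus markers was 1.88 on combination replicate 3 and 0.80 on ethanol replicate 1, but also 1.04 on saline replicate 2, and the mean of the striatal projection neuron markers was lowest on combination replicate 3 (-0.32) and ethanol replicate 1 (-0.18). The subunits were high on these same arrays. Of the 81 genes, 66 lay above their median on combination replicate 3 and 65 on ethanol replicate 1. On combination replicates 1 and 2 the counts were 59 and 36, on the other ethanol arrays 33 and 17, on the saline arrays 47, 26 and 38, and on the mephedrone arrays 44, 23 and 35. The spread within the ethanol group, from 17 to 65 genes above 0, was therefore wider than the spread of the saline or the mephedrone group. Many results that rest on these arrays, but not all, are given with and without both of them. Counts of arrays that do not overlap, ranks of group means and F-test counts are among those given with all arrays only.

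**Figure D1:**
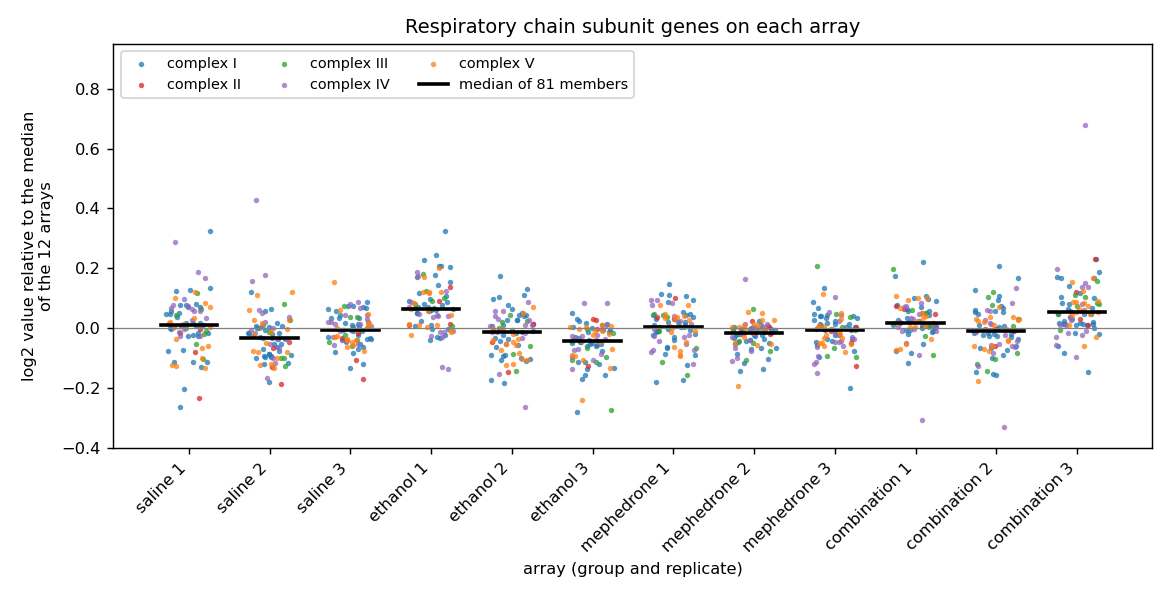
Each point is 1 of the 81 subunit genes on 1 of the 12 arrays, as the log2 value relative to the gene's median over the arrays, coloured by complex. The black lines are the medians of the 81 genes; ethanol replicate 1 and combination replicate 3 have the highest lines, and Cox8b on combination replicate 3 is the highest point at 0.68.

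Of the 3 treated groups, the combination had the most subunits that differed from saline at an unadjusted p under 0.05. The 20 that were higher were 9 of complex I, 2 of complex II, 1 of complex III, 2 of complex IV and 6 of complex V. The subunits with the largest positive differences were Sdhd, Ndufs1 and Ndufb6, each near 1.2-fold (1.23, 1.23 and 1.22), and the largest negative difference was that of Cox7b (0.769-fold). After adjustment over all 19938 genes, 0 of the 81 subunits passed a limma test at 0.05 for the combination against saline, and 0.01% of all genes did. At an unadjusted p under 0.05, 22 subunits were called (27.2%), 20 higher and 2 lower, against 12.1% of all genes. In the higher direction the shares were 24.7% of the subunits and 8.88% of all genes, and in the lower direction 2.47% and 3.26%. Because 74 of the 81 subunits were at 8 or more, genes at 8 or more are the closer background. In that class 29.7% of the subunits and 18.1% of all genes were called, 27% and 14.7% in the higher direction. The arrays did not overlap for 25 subunits that were higher (30.9% against 11.7% of all genes) and 6 that were lower (7.41% against 5.77%). At 8 or more these shares were 33.8% against 17.4% and 6.76% against 4.3%. The combination was above saline for 49 of 81 subunits (60.5%, against 57% of all genes), but at 8 or more for 63.5% of the subunits against 67.1% of all genes. The median difference of the 81 subunits was 0.020, beside 0.012 over all genes and 0.038 over genes at 8 or more.

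In the F test over the 4 groups, 0 of 81 subunits passed adjustment (0.00502% of all genes) and 15 had an unadjusted p under 0.05 (18.5% against 8.35% of all genes, and 18.9% against 13% at 8 or more). The size of the differences was small. For the combination against saline, 53 of 81 subunits differed by less than 0.1 on the log2 scale, 22 by 0.1 to 0.2 and 6 by 0.2 or more, with a median standard error of 0.055. Without ethanol replicate 1 and combination replicate 3, 18 subunits were higher and 6 lower at an unadjusted p under 0.05, beside 8.7% and 3.03% of all genes, and the median difference was 0.0084 (0.0087 over all genes). Without saline replicate 2, 13 were higher, beside 7.37% of all genes. Of the 13 choroid plexus markers, 13 were above saline with the combination (median 0.54, group ranges of the array means -0.12 to 1.04 with saline and -0.037 to 1.88 with the combination), and of the 12 striatal projection neuron markers 2 were (median -0.11). Above saline with the combination were 9 of 9 cortical excitatory neuron markers (median 0.22), 9 of 9 astrocyte markers (0.12), 8 of 9 oligodendrocyte markers (0.088), 7 of 8 ependymal markers (0.082) and 6 of 9 markers of hypothalamic and ventral forebrain neurons (0.015). Below saline were 6 of 8 endothelial markers (median -0.084) and 9 of 10 microglial markers (-0.038). Of the 10 pan-neuronal markers 7 were above saline (median 0.073). At an unadjusted p under 0.05, 2 astrocyte, 2 ependymal, 1 striatal and 1 pan-neuronal marker were higher. At that threshold 3 endothelial markers and 1 microglial marker were lower, and 0 markers of the other lists were called. The array means ran from -0.34 to 0.34 with saline and from -0.10 to 0.78 with the combination for the cortical list, from -0.054 to -0.028 and from -0.032 to 0.30 for astrocytes, from 0.0028 to 0.15 and from -0.034 to 0.50 for oligodendrocytes, and from -0.0062 to 0.041 and from -0.10 to -0.016 for endothelium. The ependymal means ran from -0.11 to 0.058 and from 0.060 to 0.14. The part of these further lists in the subunit differences was not tested. With the array means of the choroid plexus and striatal lists as covariates, 17 subunits were higher at an unadjusted p under 0.05, beside 8.08% of all genes, Ndufs1 differed from saline by 0.29 and Sdhd by 0.24.

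By complex, the median difference of the combination from saline was 0.027 for complex I (23 of 35 above 0), 0.099 for complex II (4 of 4), 0.0011 for complex III (4 of 8), -0.025 for complex IV (6 of 17) and 0.055 for complex V (12 of 17). Leaving out both arrays gave 0.030, 0.080, -0.034, -0.034 and 0.032 in the same order. Complexes I, II and V had a median above 0 in both cases and complex IV one below 0, while complex III changed sign. With all arrays the median was 0.012 over all genes (57% above 0) and 0.038 over genes at 8 or more (67.1% above 0). The median of complex I (65.7% above 0) lay below that of genes at 8 or more, and the medians of complexes II and V lay above it.

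**Figure D2:**
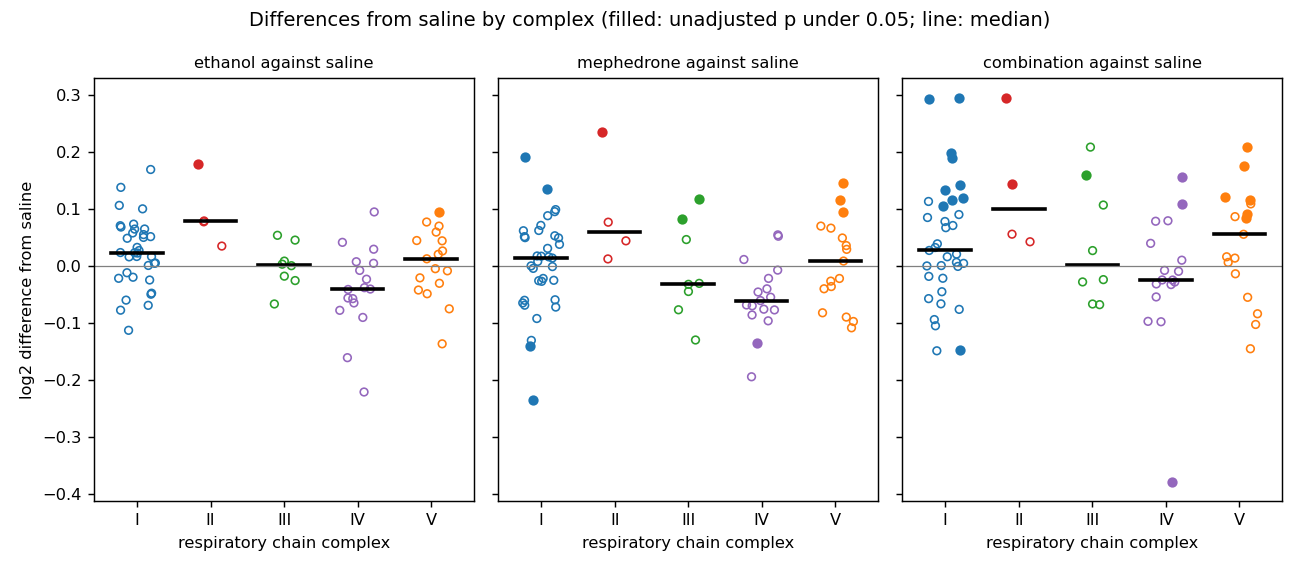
Log2 differences of the ethanol, mephedrone and combination groups from saline, 1 point per subunit gene, by complex; filled points have an unadjusted p under 0.05 in limma and the black lines are medians. The combination panel holds 22 filled points and the ethanol panel 2, and Cox7b of complex IV is the lowest point at -0.38.

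Complex I takes electrons from NADH. Its catalytic work is done by a small core shared with bacteria, and the many accessory subunits stabilise and regulate it. Of the 6 nuclear core subunits measured, 5 were above saline with the combination (median 0.087), and 3 of them, Ndufs1, Ndufv1 and Ndufv2, had an unadjusted p under 0.05. Of the 29 other complex I genes, 18 (62.1%) were above saline (median 0.016), 6 higher and 1 lower at that threshold. Over all genes 57% were above saline, 8.88% higher and 3.26% lower, and at 8 or more 67.1%, 14.7% and 3.35%. Complex I as a whole had 9 higher and 1 lower, both with all arrays and without ethanol replicate 1 and combination replicate 3. Ndufs1 encodes the largest iron-sulfur subunit of the peripheral arm; the values were -0.11, -0.10 and -0.0066 on the saline arrays, -0.0027, -0.09 and 0.024 on the ethanol arrays, 0.093, -0.033 and 0.0027 on the mephedrone arrays and 0.22, 0.21 and 0.23 on the combination arrays. The combination arrays were the 3 highest of the 12. The difference of the combination was 0.29 (SE 0.045, adjusted p = 0.0692) from saline, 0.24 (SE 0.045, adjusted p = 0.16) from ethanol and 0.20 (SE 0.045, adjusted p = 0.992) from mephedrone. Ndufs1 thus had the smallest p among the 81 subunits in each of these comparisons, and it did not pass adjustment in any of them. Without both arrays its difference from saline was 0.29 (SE 0.053, adjusted p = 0.109).

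Ndufb6 and Ndufc2 are accessory subunits of the membrane arm. For Ndufb6, the values were -0.27, -0.18 and -0.079 on the saline arrays, 0.023, -0.18 and 0.049 on the ethanol arrays, 0.11, -0.023 and -0.037 on the mephedrone arrays and 0.058, 0.13 and 0.17 on the combination arrays. The saline arrays lay below all mephedrone and combination arrays, while the ethanol arrays ranged from saline to mephedrone values. The combination differed from saline by 0.29 (SE 0.069, adjusted p = 0.148) and mephedrone alone by 0.19 (SE 0.069, adjusted p = 0.591). For Ndufc2, the values were -0.11, -0.097 and -0.03 on the saline arrays, 0.069, -0.095 and -0.052 on the ethanol arrays, 0.0023, -0.0023 and 0.022 on the mephedrone arrays and 0.064, 0.094 and 0.17 on the combination arrays. Saline was below mephedrone and mephedrone below the combination without overlap, and ethanol replicate 1 reached into the combination range. The difference from saline was 0.19 (SE 0.047, adjusted p = 0.162) with the combination and 0.088 (SE 0.047, adjusted p = 0.771) with mephedrone. Ndufa6 is an accessory subunit that binds the mitochondrial acyl carrier protein; the values were -0.21, -0.12 and -0.044 on the saline arrays, 0.079, -0.091 and -0.06 on the ethanol arrays, 0.022, -0.022 and 0.035 on the mephedrone arrays and 0.028, 0.054 and 0.14 on the combination arrays. The 3 saline arrays were below all mephedrone and combination arrays, and the ethanol arrays overlapped those of saline and mephedrone. Ndufa6 was above saline by 0.20 (SE 0.054, adjusted p = 0.203) with the combination. Ndufv1, the flavoprotein that accepts electrons from NADH, was above saline by 0.13 (SE 0.044, adjusted p = 0.273) and above mephedrone by 0.12 (SE 0.044, adjusted p = 0.992).

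Other complex I genes went the opposite way. Ndufb8 had the largest standard deviation over the 12 arrays in complex I; the values were 0.32, 0.0066 and 0.089 on the saline arrays, 0.24, -0.0066 and -0.16 on the ethanol arrays, -0.088, -0.12 and -0.078 on the mephedrone arrays and 0.034, -0.074 and 0.011 on the combination arrays. The mephedrone arrays were close together and below all saline and combination arrays, whereas saline and ethanol each spread over more than the distance between the groups. Mephedrone differed from saline by -0.23 (SE 0.096, adjusted p = 0.649). Ndufb10, a membrane arm subunit, differed from saline by -0.15 (SE 0.041, adjusted p = 0.203) with the combination and was, with Cox7b, 1 of the 2 subunits lower at an unadjusted p under 0.05. Ndufa7, a subunit of the peripheral arm, was at -0.15 (SE 0.063, adjusted p = 0.471) in the combination against ethanol. Both mephedrone and combination arrays lay below all ethanol arrays for Ndufa7.

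The 250 bases upstream of the RefSeq transcription start (GRCm38.p6) are shown for Ndufb6, Ndufa6 and Ndufc2, the complex I genes that had saline arrays below all mephedrone and combination arrays and a single promoter entry. Over all complexes 11 of the 81 subunits met the array condition, and the share of all genes that meet it was not computed. Both conditions were met by 7 genes, the others being Atp5b, Atp5pb, Sdhb and Sdhd. Of the 7, 5 held a match to at least 1 of the 4 motifs searched, and Ndufc2 and Atp5b held 0. These 7 were picked by their array values. The share with any of the 4 motifs was not computed over all subunits or all genes, so 5 of 7 is a description only. Capitals mark matches on the opposite strand, in Ndufb6 to the ETS core motif CCGGAAG and in Ndufa6 to the NRF1 motif GCGCATGC. The windows are chr4:40279422-40279671 (minus strand), chr15:82354292-82354541 (minus strand) and chr7:97399753-97400002 (plus strand), printed 5′ to 3′ along the gene.
Ndufb6: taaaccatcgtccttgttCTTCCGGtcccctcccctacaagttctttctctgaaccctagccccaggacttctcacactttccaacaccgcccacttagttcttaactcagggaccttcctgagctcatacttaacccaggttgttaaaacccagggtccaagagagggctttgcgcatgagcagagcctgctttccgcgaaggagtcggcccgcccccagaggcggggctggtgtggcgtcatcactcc
Ndufa6: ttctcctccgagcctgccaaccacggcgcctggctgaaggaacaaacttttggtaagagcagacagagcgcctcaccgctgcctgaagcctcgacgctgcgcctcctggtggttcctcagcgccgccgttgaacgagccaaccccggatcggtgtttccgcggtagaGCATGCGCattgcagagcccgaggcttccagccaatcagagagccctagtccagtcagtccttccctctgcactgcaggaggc
Ndufc2: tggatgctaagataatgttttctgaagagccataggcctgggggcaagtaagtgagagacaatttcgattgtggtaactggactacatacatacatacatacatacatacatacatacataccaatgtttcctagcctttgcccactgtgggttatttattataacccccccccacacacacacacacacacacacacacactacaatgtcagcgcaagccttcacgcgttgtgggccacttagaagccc

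RefSeq promoter entries were matched by gene ID for 66 of the 81 genes (71 entries, 5 genes with several). Searched on both strands, CCGGAAG was present for 12 of the 66 genes (18.2%) and for 7.8% of 27025 genes. The NRF1 motif GCGCATGC was present for 8 (12.1% against 2.6%), the YY1 motif AAGATGGC for 1 (1.5% against 1.8%) and the E-box CACGTG for 6 (9.1% against 6.9%). No motif of the 4 contains another. NRF1, ETS factors such as GABPA, and YY1 are textbook regulators of respiratory chain genes. The 12 genes with CCGGAAG had a median difference of the combination from saline of 0.059 and the 54 without it 0.015, and 4 of the 12 and 12 of the 54 were higher at an unadjusted p under 0.05. The 8 genes with the NRF1 motif had a median of -0.012, and 1 of them was higher at that threshold. The member windows had a median GC content of 56.0% and all windows 52.4%.

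Complex II is succinate dehydrogenase, an enzyme of both the respiratory chain and the TCA cycle. Its 4 genes were all lowest in the saline group by group mean. Sdhd encodes a membrane anchor; the values were -0.24, -0.19 and -0.17 on the saline arrays, 0.091, -0.15 and -0.0026 on the ethanol arrays, 0.10, 0.0061 and 0.0026 on the mephedrone arrays and 0.062, -0.0035 and 0.23 on the combination arrays. All 3 saline arrays were below all 9 others. The difference from saline was 0.29 (SE 0.068, adjusted p = 0.143) with the combination, 0.24 (SE 0.068, adjusted p = 0.452) with mephedrone and 0.18 (SE 0.068, adjusted p = 0.997) with ethanol. The 3 differences share the same saline arrays, so they are not separate evidence. Without both arrays the combination differed from saline by 0.23 (SE 0.052, adjusted p = 0.151).

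Sdha encodes the flavoprotein that oxidises succinate; the values were -0.079, -0.13 and -0.034 on the saline arrays, 0.012, -0.048 and 0.029 on the ethanol arrays, 0.031, 0.0045 and -0.049 on the mephedrone arrays and 0.072, -0.0045 and 0.12 on the combination arrays. Saline and combination did not overlap, and both single-drug groups reached into the saline range. The combination was above saline by 0.14 (SE 0.043, adjusted p = 0.241). Sdhc encodes the other membrane anchor; the values were -0.0048, -0.068 and -0.11 on the saline arrays, 0.011, 0.015 and 0.027 on the ethanol arrays, 0.0048, -0.02 and -0.13 on the mephedrone arrays and 0.016, -0.059 and 0.031 on the combination arrays. The ethanol arrays lay close together, above all saline and mephedrone arrays. Its difference from saline was 0.077 (SE 0.044, adjusted p = 1.00) with ethanol and 0.055 (SE 0.044, adjusted p = 0.667) with the combination. Sdhb, the iron-sulfur subunit, differed from saline by 0.042 (SE 0.055, adjusted p = 0.814) with the combination. Its 3 saline arrays, at -0.017, -0.046 and -0.016, were below all mephedrone and combination arrays, while the ethanol arrays ran from -0.13 to 0.14.

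**Figure D3:**
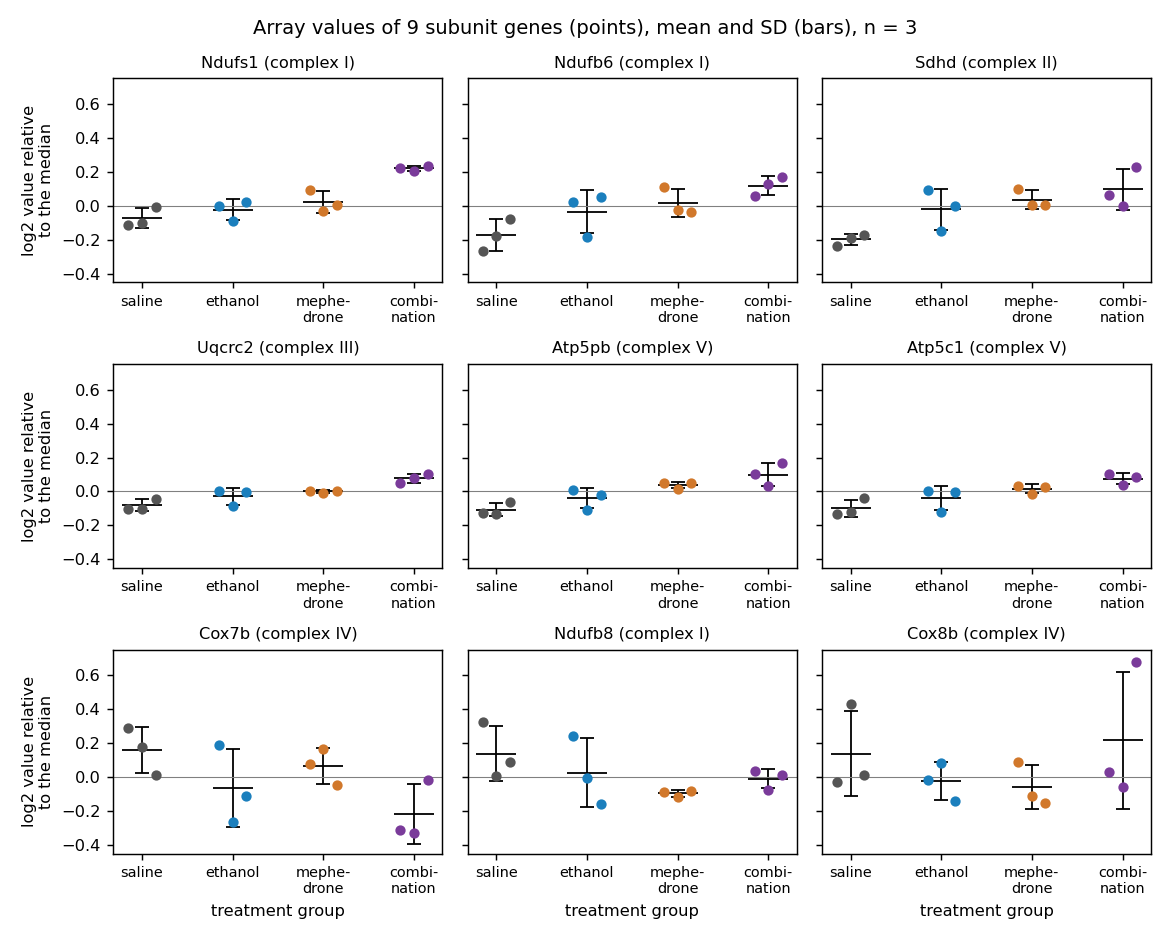
Log2 values relative to the median of the 12 arrays for 9 subunit genes, 1 point per array, with the group mean and SD (n = 3). Ndufs1 is highest on the combination arrays and Sdhd lowest on the saline arrays, Cox7b spans 0.29 to -0.33, and the Cox8b mean of the combination rests on 1 array at 0.68.

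Complex III, ubiquinol-cytochrome c reductase, passes electrons from ubiquinol to cytochrome c. Uqcrc2 encodes a core protein that faces the matrix; the values were -0.10, -0.10 and -0.042 on the saline arrays, 0.0053, -0.087 and -0.0039 on the ethanol arrays, 0.0057, -0.0095 and 0.0039 on the mephedrone arrays and 0.049, 0.078 and 0.10 on the combination arrays. The saline arrays were below all mephedrone arrays and these below all combination arrays. The combination differed from saline by 0.16 (SE 0.036, adjusted p = 0.139). Its partner core protein Uqcrc1 was at -0.028 (SE 0.067, adjusted p = 0.912) and the Rieske iron-sulfur protein Uqcrfs1 at -0.024 (SE 0.056, adjusted p = 0.908). Of these 3 core genes 1 was above saline. The complex III gene Cyc1, outside the naming rule, is not counted among them. Uqcrb encodes a small ubiquinone-binding subunit, read by 3 probe sets; the values were -0.052, -0.10 and -0.06 on the saline arrays, 0.08, -0.14 and -0.017 on the ethanol arrays, 0.037, 0.065 and 0.035 on the mephedrone arrays and 0.0058, 0.11 and -0.0058 on the combination arrays. Saline lay below mephedrone and the combination, and ethanol overlapped every group. The difference from saline was 0.12 (SE 0.052, adjusted p = 0.683) with mephedrone and 0.11 (SE 0.052, adjusted p = 0.449) with the combination.

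Uqcr11 and Uqcr10 encode small subunits of the complex. For Uqcr11, the values were -0.022, -0.13 and -0.047 on the saline arrays, 0.067, 0.02 and -0.27 on the ethanol arrays, -0.16, -0.11 and 0.21 on the mephedrone arrays and 0.20, 0.12 and 0.11 on the combination arrays. The combination arrays were above all saline and ethanol arrays, but mephedrone replicate 3 was the highest of the 12. The combination differed from saline by 0.21 (SE 0.099, adjusted p = 0.435). For Uqcr10, the values were 0.044, 0.026 and 0.038 on the saline arrays, 0.18, 0.042 and -0.11 on the ethanol arrays, -0.11, -0.077 and -0.092 on the mephedrone arrays and -0.026, -0.14 and 0.073 on the combination arrays. The mephedrone arrays were below all saline arrays, and ethanol replicate 1 was high. Mephedrone differed from saline by -0.13 (SE 0.068, adjusted p = 0.766).

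Complex IV, cytochrome c oxidase, had more genes below than above saline in each treated group. With mephedrone 14 of its 17 genes were below saline (median -0.061), with ethanol 12 of 17 (median -0.041) and with the combination 11 of 17 (median -0.025). Over all genes 56%, and over those at 8 or more 62.7%, were above 0 for mephedrone against saline. For ethanol these shares were 58.9% and 65.7%. The saline group had the highest mean for 9 of the 17 genes and the mephedrone group the lowest for 10. Of the 10 isoforms that brain uses, 8 were below saline with mephedrone (median -0.065), and of the 7 tissue-restricted isoforms 6 were (median -0.046). At an unadjusted p under 0.05, Cox6a2 was the complex IV gene that was lower with mephedrone, by -0.14 (SE 0.062, adjusted p = 0.687). Cox4i1, the regulatory subunit present in most tissues, was at -0.086 (SE 0.052, adjusted p = 0.82), and its mephedrone arrays lay below all saline arrays.

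Cox7b encodes a small structural subunit and had the largest difference of any of the 81 genes between the combination and saline; the values were 0.29, 0.18 and 0.015 on the saline arrays, 0.19, -0.26 and -0.11 on the ethanol arrays, 0.076, 0.16 and -0.048 on the mephedrone arrays and -0.31, -0.33 and -0.015 on the combination arrays. Combination replicates 1 and 2 were the lowest of the 12, while combination replicate 3 was near the ethanol and mephedrone arrays, and the ethanol group spanned 0.19 to -0.26. The saline arrays lay above all combination arrays, narrowly for saline replicate 3. The combination differed from saline by -0.38 (SE 0.12, adjusted p = 0.256), and across both ethanol-treated groups the effect was -0.25 (SE 0.084, adjusted p = 0.941). Both of its probe sets were below saline, at -0.33 and -0.43 for the combination against saline. Without both arrays the difference was -0.48 (SE 0.083, adjusted p = 0.109). Cox6b1 encodes a subunit on the intermembrane side; the values were -0.026, -0.17 and -0.03 on the saline arrays, 0.042, 0.056 and -0.037 on the ethanol arrays, -0.072, -0.10 and 0.10 on the mephedrone arrays and 0.083, 0.13 and 0.026 on the combination arrays. Saline and combination did not overlap, and mephedrone overlapped both. The difference was 0.16 (SE 0.06, adjusted p = 0.329).

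The window upstream of Cox7b is shown because the gene had the largest negative difference. It is chrX:106015450-106015699 (GRCm38.p6, plus strand, RefSeq) and holds none of the motifs searched, so no letters are in capitals. Its GC content is 43.6%, below the median of the member windows.
Cox7b: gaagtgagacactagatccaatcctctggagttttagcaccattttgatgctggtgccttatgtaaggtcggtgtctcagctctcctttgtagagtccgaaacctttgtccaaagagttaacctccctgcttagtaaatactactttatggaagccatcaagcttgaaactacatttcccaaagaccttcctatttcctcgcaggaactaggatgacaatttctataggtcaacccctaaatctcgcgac

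Cox7a1 and Cox8b, isoforms of complex IV known from muscle, were read below 8. Cox7a1 had values of 0.026, -0.0066 and -0.0083 on the saline arrays, -0.029, 0.0066 and 0.0088 on the ethanol arrays, -0.12, -0.066 and -0.031 on the mephedrone arrays and 0.032, 0.018 and 0.20 on the combination arrays. The mephedrone arrays were the 3 lowest of the 12 and combination replicate 3 the highest. The combination was above mephedrone by 0.16 (SE 0.047, adjusted p = 0.992), and the interaction, which asks whether ethanol changes the effect of mephedrone, was 0.16 (SE 0.067, adjusted p = 1.00). Without both arrays the interaction was 0.094 (SE 0.054, adjusted p = 0.999). Cox8b had the largest standard deviation of the 81 genes; the values were -0.025, 0.43 and 0.014 on the saline arrays, -0.014, 0.087 and -0.14 on the ethanol arrays, 0.093, -0.11 and -0.15 on the mephedrone arrays and 0.031, -0.059 and 0.68 on the combination arrays. Its highest arrays were combination replicate 3 and saline replicate 2, which are also those with the highest choroid plexus marker means, and no groups were separate. The interaction was 0.43 (SE 0.25, adjusted p = 1.00) with all arrays and 0.21 (SE 0.18, adjusted p = 0.999) without both. Within the other isoform pairs the log2 differences of the combination from saline were -0.055 for Cox4i1 and -0.098 for Cox4i2, -0.0098 for Cox6a1 and -0.098 for Cox6a2, -0.032 for Cox7a2 and -0.029 for Cox7a2l, and -0.0082 for Cox8a and -0.033 for Cox8c. Cox6b2 was at -0.025 beside 0.16 for Cox6b1, and Cox7b2 at -0.025.

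Complex V, the ATP synthase, had 6 of its 17 genes higher with the combination than with saline at an unadjusted p under 0.05, and 0 lower. Over all genes 8.88% were higher and 3.26% lower, and at 8 or more 14.7% and 3.35%. When ethanol replicate 1 and combination replicate 3 were left out, 4 of the 17 were higher and 1 lower. Of the 5 genes of the catalytic F1 head, 4 were above saline (median 0.083), and of the 4 of the peripheral stalk, which holds the head still, 4 were (median 0.089). The 3 c-ring genes had a median of 0.0059 and the 5 small membrane subunits one of -0.055. Atp5pb encodes the b subunit of the stalk; the values were -0.12, -0.14 and -0.064 on the saline arrays, 0.01, -0.11 and -0.019 on the ethanol arrays, 0.048, 0.015 and 0.05 on the mephedrone arrays and 0.10, 0.032 and 0.17 on the combination arrays. All 6 arrays with mephedrone were above all 6 arrays without it, and Atp5pb was the 1 subunit for which this held (1.23% of the subunits against 0.908% of all genes, and 1.35% against 1.45% at 8 or more). The combination was above saline by 0.21 (SE 0.044, adjusted p = 0.118) and mephedrone by 0.15 (SE 0.044, adjusted p = 0.492). Its probe sets gave 0.23 and 0.18 for the combination. Atp5c1 encodes the rotating gamma subunit; the values were -0.13, -0.12 and -0.041 on the saline arrays, 0.0027, -0.12 and -0.0027 on the ethanol arrays, 0.032, -0.015 and 0.029 on the mephedrone arrays and 0.11, 0.038 and 0.084 on the combination arrays. Saline lay below mephedrone, and mephedrone below the combination. The combination was above saline by 0.18 (SE 0.043, adjusted p = 0.162).

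Atp5a1 encodes the alpha subunit of the head; the values were -0.06, -0.079 and -0.078 on the saline arrays, 0.0091, -0.085 and -0.0091 on the ethanol arrays, 0.033, 0.011 and -0.052 on the mephedrone arrays and 0.039, 0.019 and 0.088 on the combination arrays. Saline was below mephedrone and the combination without overlap. The combination differed from saline by 0.12 (SE 0.038, adjusted p = 0.254). The catalytic beta subunit Atp5b had a standard deviation of 0.036 over the 12 arrays, and was above saline by 0.083 (SE 0.03, adjusted p = 0.311). Atp5j, coupling factor 6 of the stalk, was above saline by 0.091 (SE 0.039, adjusted p = 0.376) with the combination, 0.094 (SE 0.039, adjusted p = 0.653) with mephedrone and 0.094 (SE 0.039, adjusted p = 0.997) with ethanol. Atp5e encodes the epsilon subunit of the head; the values were 0.069, 0.11 and 0.059 on the saline arrays, 0.12, -0.048 and -0.24 on the ethanol arrays, -0.094, -0.051 and 0.11 on the mephedrone arrays and -0.069, -0.18 and 0.048 on the combination arrays. Saline was above the combination, and ethanol covered more than the range of both. The difference was -0.15 (SE 0.087, adjusted p = 0.543).

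Atp5o encodes the stalk subunit known as OSCP; the values were 0.084, 0.062 and -0.025 on the saline arrays, 0.20, -0.073 and -0.13 on the ethanol arrays, -0.092, 0.025 and -0.061 on the mephedrone arrays and 0.10, -0.059 and 0.12 on the combination arrays. Groups overlapped throughout, and ethanol held both the highest and the lowest array. The combination differed from saline by 0.016 (SE 0.08, adjusted p = 0.959). The 3 c-ring genes encode the same mature protein, and their differences were 0.0058 for Atp5g1, -0.014 for Atp5g2 and 0.11 for Atp5g3, of which Atp5g3 had an unadjusted p under 0.05. In complex I, Ndufa4 was at 0.11 and its low-oxygen relative Ndufa4l2 at -0.058.

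The main effect of mephedrone compares the mephedrone and combination arrays with the saline and ethanol arrays. Ndufs1, Atp5pb, Atp5c1, Uqcrc2, Sdhd and Ndufb6 had the smallest p, and all 6 were higher. The effects were 0.17 (SE 0.032, adjusted p = 0.0699) for Ndufs1, 0.14 (SE 0.031, adjusted p = 0.0936) for Atp5pb and 0.12 (SE 0.03, adjusted p = 0.135) for Atp5c1. They were 0.093 (SE 0.025, adjusted p = 0.14) for Uqcrc2, 0.18 (SE 0.048, adjusted p = 0.142) for Sdhd and 0.17 (SE 0.049, adjusted p = 0.152) for Ndufb6. These are mean effects over a group of 6 arrays each and share the combination arrays with the comparisons above. With limma, 0 of 81 subunits passed at an adjusted p of 0.05, against 0.115% of all genes (23 genes). At an unadjusted p under 0.05, 14 were higher and 2, Ndufa7 and Ndufb10, were lower, which is 19.8% of the subunits against 12.6% of all genes. At 8 or more the shares were close, 21.6% of the subunits and 19.1% of all genes. In the higher direction 8.36% of all genes were called and in the lower direction 4.28%, and at 8 or more 18.9% of the subunits and 13.7% of all genes were higher. Without both arrays that stood apart, 15 subunits were higher and 4 lower, beside 11.2% and 5.75% of all genes. The median effect of the 81 genes was 0.0041 (0.0038 over all genes) and 41 of 81 were above 0 (50.6%, against 53.2% of all genes). At 8 or more 51.4% of the subunits were above 0 (median 0.0064), fewer than the 61% of all genes there (median 0.018). Complex I (6 higher), complex V (4), complex II (2) and complex III (2) held the higher calls and complex IV had 0. With array quality weights Ndufs1 (0.16, adjusted p = 0.0364) and Atp5pb (0.13, adjusted p = 0.0406) passed, as did 1.79% of all genes.

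Mephedrone alone against saline gave 0 subunits past adjustment in limma, as for all genes (0%). At an unadjusted p under 0.05, 8 subunits were higher and 3 lower (13.6% against 7.23% of all genes, 5.72% higher and 1.51% lower, and 14.9% against 10.9% at 8 or more). The lower ones were Ndufb8, Ndufv3 and Cox6a2, and the higher ones included Sdhd, Atp5pb, Ndufb6, Atp5c1, Ndufa6 and Atp5j. Arrays did not overlap for 12 higher subunits (14.8% against 9.99%) and 9 lower (11.1% against 4.74%). At 8 or more these shares were 16.2% against 14.7% and 10.8% against 4.79%. The median difference was -0.0046, and 38 of 81 subunits were above 0. Ndufv3, a subunit with tissue-dependent splice forms, was at -0.14 (SE 0.062, adjusted p = 0.679). Ethanol alone against saline gave 0 past adjustment (0% of all genes) and 2 subunits at an unadjusted p under 0.05, Sdhd and Atp5j, both higher (2.47% against 4.98% of all genes, 4.07% higher and 0.908% lower, and 2.7% against 6.78% at 8 or more). The ethanol arrays did not overlap with saline for 3 higher and 3 lower subunits (6.1% and 2.44% of all genes, 7.72% and 2.11% of those at 8 or more). With all arrays 48 of 81 subunits were above saline and the median was 0.0082. Without ethanol replicate 1 and combination replicate 3 the direction turned, with 1 subunit higher and 9 lower at an unadjusted p under 0.05 (4.64% and 1.9% of all genes), 31 of 81 above saline (59.4% of all genes) and a median of -0.028 (0.013 over all genes). Of the 9, 4 were of complex V, 3 of complex I and 2 of complex IV.

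The main effect of ethanol, over both ethanol-treated groups, had 0 subunits past adjustment in limma (0% of all genes). At an unadjusted p under 0.05, 10 subunits were higher and 1, Cox7b, was lower (13.6% against 4.57% of all genes, 3.44% higher and 1.13% lower, and 13.5% against 6% at 8 or more). The smallest p belonged to Ndufs1, with an effect of 0.12 (SE 0.032, adjusted p = 0.941), followed by Cox7b, Uqcrc2, Sdhd, Ndufb6 and Ndufv1. Without both arrays, 2 were higher and 4 lower, beside 3.17% and 1.39% of all genes. The combination against ethanol had 0 of 81 past adjustment (0.0251% of all genes) and 8 higher and 3 lower at an unadjusted p under 0.05 (13.6% against 9.73% of all genes, 5.31% higher and 4.41% lower). At 8 or more the shares were nearly equal, 14.9% of the subunits and 14.2% of all genes. Ndufs1, Atp5pb, Uqcrc2, Ndufc2 and Atp5c1 led the higher genes, and Ndufb10, Ndufa3 and Ndufa7, all of complex I, were lower. Without both arrays, 13 were higher and 0 lower, beside 6.74% and 4.98% of all genes. For the combination against mephedrone, 0 passed adjustment (0% of all genes), and 3 higher (Ndufs1, Cox7a1 and Ndufv1) and 1 lower (Cox7b) had an unadjusted p under 0.05, which is 4.94% against 3.31% of all genes (1.89% higher and 1.42% lower), and at 8 or more 4.05% against 4.06%. Cox7b differed by -0.28 (SE 0.12, adjusted p = 0.992). In this comparison 65 of 81 subunits were above 0 (80.2%), against 51.9% of all genes, and at 8 or more 81.1% against 57.8%, with a median of 0.040. Without both arrays 57 of 81 were above 0 (51.7% of all genes), with a median of 0.025. In the same comparison 13 of 13 choroid plexus markers (median 0.59), 9 of 9 oligodendrocyte markers (0.23), 9 of 9 cortical excitatory neuron markers (0.18), 9 of 9 astrocyte markers (0.066) and 6 of 8 ependymal markers (0.075) were above 0. Of the 12 striatal projection neuron markers 0 were above 0 (median -0.13), and of 8 endothelial markers 2 were (-0.061). The counts above 0 were 8 of 10 for pan-neuronal markers (0.049), 6 of 9 for hypothalamic and ventral forebrain neurons (0.038) and 5 of 10 for microglia (0.0028). The part of these lists in the subunit shift was not tested. The interaction had 0 of 81 past adjustment (0% of all genes) and 2, Cox7a1 and Ndufs1, at an unadjusted p under 0.05 (2.47% against 3.54% of all genes, 1.14% higher and 2.4% lower, and 1.35% against 4.67% at 8 or more), both above 0. For Ndufs1 the interaction was 0.15 (SE 0.064, adjusted p = 1.00). When both arrays were left out, 3 subunits were above 0 and 0 below at an unadjusted p under 0.05, beside 1.59% and 2.88% of all genes.

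By group mean, the combination was highest for 36 of the 81 genes and lowest for 8, saline highest for 23 and lowest for 33, mephedrone highest for 7 and lowest for 32, and ethanol highest for 15 and lowest for 8. Complex II had saline lowest for 4 of 4 genes, and complex V had the combination highest for 10 of 17. The median correlation between pairs of the 81 genes over the 12 arrays was 0.21, beside 0.19 for the 59 cytosolic ribosomal proteins and 0.89 for the 12 striatal projection neuron markers. By complex it was 0.39 for the 4 genes of complex II, 0.27 for complex III, 0.24 for complex I, 0.20 for complex V and 0.17 for complex IV. These correlations share the arrays and all their technical features, and are descriptions. Of the 81 genes, 16 were read by several probe sets, and in 14 of these the probe sets correlated above 0.5 over the arrays in every pair. Cox7a2l (0.21) and Ndufc1 (0.34) were the exceptions. Several of these extra probe sets may read near-identical copies elsewhere in the genome, so values of such genes are uncertain.

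Genes outside the 81 that serve the same complexes, among them the complex III gene Cyc1, included some that passed the test. Of 43 assembly factors measured, 2 passed in the main effect of mephedrone, both higher, and 9 were higher and 0 lower at an unadjusted p under 0.05. They were Cmc1, a chaperone of complex IV assembly, with an effect of 0.23 (SE 0.03, adjusted p = 0.0183), and Sdhaf4, which helps to build complex II, with 0.23 (SE 0.03, adjusted p = 0.0183). Cmc1 rose also in the combination against saline, by 0.35 (SE 0.042, adjusted p = 0.0355). The medians of the 43 were 0.029 and 0.056. Of 15 electron carrier genes, which make ubiquinone and cytochrome c and include Cyc1, Coq3 rose in the main effect of mephedrone, by 0.25 (SE 0.041, adjusted p = 0.0498), and 6 were higher and 2 lower at an unadjusted p under 0.05. Their medians were 0.046 for mephedrone and 0.11 for the combination against saline. Of 16 TCA cycle enzymes, Dld, the dihydrolipoamide dehydrogenase shared by several dehydrogenase complexes, rose in the main effect of mephedrone, by 0.21 (SE 0.033, adjusted p = 0.046). The combination lay above saline for 15 of the 16 (median 0.12), with 9 higher and 0 lower at an unadjusted p under 0.05. In this comparison 57% of all genes lay above saline, 8.88% were higher and 3.26% lower at that threshold, and 0.01% passed. At 8 or more 67.1% lay above saline and 14.7% were higher. In the main effect of mephedrone 0.115% of all genes passed, 8.36% were higher and 4.28% lower, and at 8 or more 13.7% were higher.

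Of 13 regulators of mitochondrial biogenesis, 0 passed in limma in either comparison, and 2 were higher and 2 lower at an unadjusted p under 0.05 in the main effect of mephedrone. The mitochondrial transcription factors Tfb2m and Tfam were at 0.11 (SE 0.032, adjusted p = 0.152) and 0.11 (SE 0.038, adjusted p = 0.261). Of 77 mitochondrial ribosomal proteins, 0 passed, 18 were higher and 2 lower at an unadjusted p under 0.05 for the combination against saline (median 0.056), and Mrpl18 led with 0.28 (SE 0.053, adjusted p = 0.111). Of 59 cytosolic ribosomal proteins, 0 passed, 2 were higher and 13 lower (median -0.044), with Rpl7a at -0.18 (SE 0.04, adjusted p = 0.139). Over all genes 8.88% were higher and 3.26% lower in this comparison, and at 8 or more 14.7% and 3.35%. Of the subunits made from mitochondrial DNA, ND3 and COX2 were measured, and their main effects of mephedrone were 0.081 (SE 0.041, adjusted p = 0.45) and 0.035 (SE 0.033, adjusted p = 0.746). For the combination against saline, the median of the 81 subunits (0.020) lay between that of the cytosolic ribosomal proteins and those of the assembly factors and TCA cycle enzymes.

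**Figure D4:**
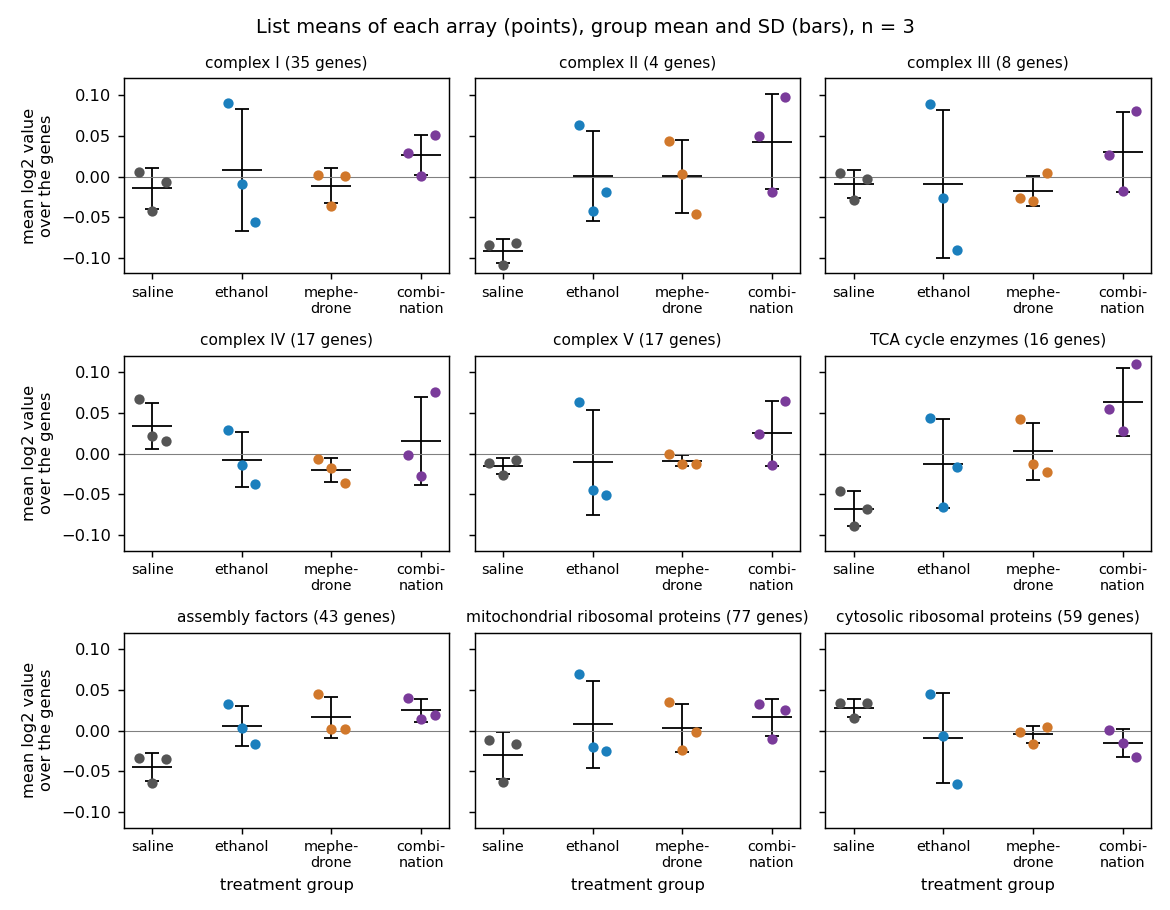
Mean log2 value of each array over the genes of 9 lists, 1 point per array, with the group mean and SD (n = 3). The saline arrays are the 3 lowest for complex II (-0.11 to -0.082) and the ethanol group has the widest spread for complexes I and III, while the cytosolic ribosomal proteins are not higher with the combination.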

How the data were processed

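RNA of the anterior striatum was measured on 12 Affymetrix whole-transcript arrays, 3 for each of 4 groups. The deposited values are log2 values, made by the authors with RMA on genome build mm8 per the submitters' processing notes, and analysed with GeneSpring GX 7.3.1 per the labels. No source states the centring: every probe set has a median of 0 over the 12 arrays, so levels are lost. The log2 scale is taken from RMA, and the direction as deposited; the array medians over genes lie between -0.0088 and 0.0047.

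Of 28853 probe sets, 21789 carry 1 symbol in the platform annotation, 1621 several and 5443 are not listed. Probe sets were averaged per gene. Signal was read as 8 or more on the log2 scale for 13426 probe sets and below 8 for 15424 from the rounding steps of single-precision numbers; 3 stayed unsettled. All 12 arrays were fitted in 1 limma model (limma 3.58.1, R 4.3.3; 8 residual degrees of freedom) with lmFit and eBayes and 8 contrasts, each adjusted by Benjamini-Hochberg over 19938 genes at 0.05. The number of arrays limits the precision. On simulated data for the main effect of mephedrone over 19938 genes, the fit recovered 39 of 50 genes changed by 0.2 on the log2 scale. It recovered 49 of 50 changed by 0.4 and 50 of 50 by 0.8 or 1.6, with 12 false calls. The simulated noise was normal and independent between genes and arrays, so it held no array-wide features such as those of the arrays that stood apart. All changed genes were planted together, which eases the adjusted threshold. The counts recovered can therefore exceed what these arrays allow. No 2 arrays were duplicates (highest correlation 0.34).

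Subunits named with all array values are, per complex, the 3 with the smallest F-test p and the 2 with the largest standard deviation, and also Ndufa6. Per contrast, the 6 with the smallest p and those that differ by 0.2 or more were chosen, but not every such effect is printed. Of these, Ndufs5 (ethanol against saline) and Ndufa9 (combination against ethanol) are named only here. Isoform families are named in addition. The members, the gene lists and the marker lists were chosen with earlier results of these data known. Marker lists were those of choroid plexus, ependyma, projection, cortical, hypothalamic and other neurons, oligodendrocytes, astrocytes, microglia and endothelium. Alternatives were quantile normalisation, probe sets at 8 or more, single probe sets, fewer arrays, array quality weights, robust eBayes, marker means as covariates and a block for the replicate number.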

Additional observations from a re-analysis of the deposited data

How the results depend on the processing

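The number of subunits past adjustment was 0 in each of the 8 contrasts and in the F test under every alternative run, with 1 exception: array quality weights gave 2 for the main effect of mephedrone (Ndufs1 and Atp5pb), where 356 of all 19938 genes passed, against 23 without weights; the cause was not tested. Of 12 results for Ndufs1, Atp5pb, Atp5c1, Uqcrc2, Sdhd and Ndufb6, all 234 alternative values kept their direction and 2 crossed the threshold. For Ndufs1 the adjusted p ranged from 0.0539 to 0.224 for the combination against saline and from 0.0364 to 0.186 for mephedrone. Without ethanol replicate 1, the median difference of the subunits became -0.028 for ethanol against saline (also without both arrays that stand apart), 0.064 for the combination against ethanol and 0.064 for the interaction. Leaving out 1 array at a time, the median ranged from -0.0036 to 0.064 for the combination against ethanol, from 0.025 to 0.061 against mephedrone and from 0.0084 to 0.041 against saline. It ranged from -0.028 to 0.034 for ethanol against saline, from -0.024 to 0.0053 for mephedrone against saline, from 0.0066 to 0.042 and from -0.0088 to 0.018 for the main effects of ethanol and mephedrone, and from 0.0091 to 0.064 for the interaction. The subunits higher at an unadjusted p under 0.05 numbered 13 to 22 for the combination against saline, with 13 without saline replicate 2 (7.37% of all genes), and 11 to 21 for the main effect of mephedrone. With group means removed, same-numbered arrays of different groups had a median correlation of 0.027, against 0.026 for other pairs. Of 18 same-numbered pairs, 7 correlated above 0.1 (range -0.28 to 0.43). These values do not settle whether the replicate numbers pair the arrays. With the replicate block 0 subunits passed in any contrast. At an unadjusted p under 0.05, 15 were then higher for mephedrone and 18 for the combination (8.53% and 9.07% of all genes). The number of arrays limits precision: with 3 a group, the median standard error was 0.055, and 53 of 81 differences of the combination from saline were under 0.1 in size.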
